A study of Mus musculus with 2 samples.

Results

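Clustered CTCF sites are the places where several CTCF-enriched bins lie within a few kilobases of each other on the mouse autosomes. They were picked from 1 library of CTCF-immunoprecipitated DNA (ChIP) and 1 library of whole-cell extract, which is input chromatin sequenced without an antibody step. Reads on chromosomes 1 to 19 had their 5′ ends moved towards 3′ to the middle of the fragment, by the same length for every read, and were counted in fixed bins of 1 kb. A site was a bin with at least 10 ChIP reads and at most 10 extract reads, and adjacent sites were merged into the highest bin. A clustered site has 10 to 39 ChIP reads and at least 2 other sites within 10 kb. This rule found 2761 clustered sites among 26066 sites in all, which is 10.6% of them, and among 24027 sites of 10 to 39 reads.

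CTCF is a zinc-finger protein that binds DNA at a long, directional motif. It acts at insulators, which limit the reach of enhancers, and it halts cohesin as cohesin extrudes chromatin loops, so that loop ends and domain borders often carry CTCF. Neighbouring sites can be occupied in different cells or on different alleles, and reads pooled over many cells do not tell these cases apart. In embryonic stem cells CTCF is abundant and its sites are spread over all chromosomes.

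The cells of both libraries were V6.5 mouse embryonic stem cells, male, of genotype 129SvJaexC57BL/6, at passages 10 to 15. They were grown on irradiated feeder fibroblasts and then passaged on gelatin to remove those fibroblasts. No treatment or deletion separates the libraries. The ChIP library held 2371134 reads from 1 lane and the extract 4691104 reads from 2 lanes, of which 2325631 and 4592161 lay on chromosomes 1 to 19, or 0.944 and 1.86 reads per kb. There was 1 library per group, so intervals (95%, exact unless stated otherwise) cover counting error only. Sites and bins of 1 library are not replicates, and their spread beyond counting is not covered.

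Clustered sites were compared with 3 other classes of 10 to 39 ChIP reads. There were 7010 paired sites with 1 other site within 10 kb and 14256 single sites with 0 others within 10 kb. Among the single sites were 1879 isolated sites with no other site within 100 kb. Sites of 40 or more reads, 2039 in all, counted as neighbours but were not members.

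Clustered sites covered the whole range of reads that the rule allowed. They held 59326 ChIP reads, 2.55% of those on chromosomes 1 to 19, in 0.112% of the bins. The same bins held 0.197% of the extract reads. The median clustered site had 21 ChIP reads (quartiles 14 and 28) and 3 extract reads, and 148 clustered sites (5.36%) had no extract read. The median single site had 18 ChIP reads (13 and 24) and the median isolated site 15 (12 and 20). Sites of 30 to 39 reads made up 20.1% of clustered, 18.2% of paired, 12.4% of single and 4.9% of isolated sites. These counts chose the members, so they describe the classes and were not tested.

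**Figure D1:**
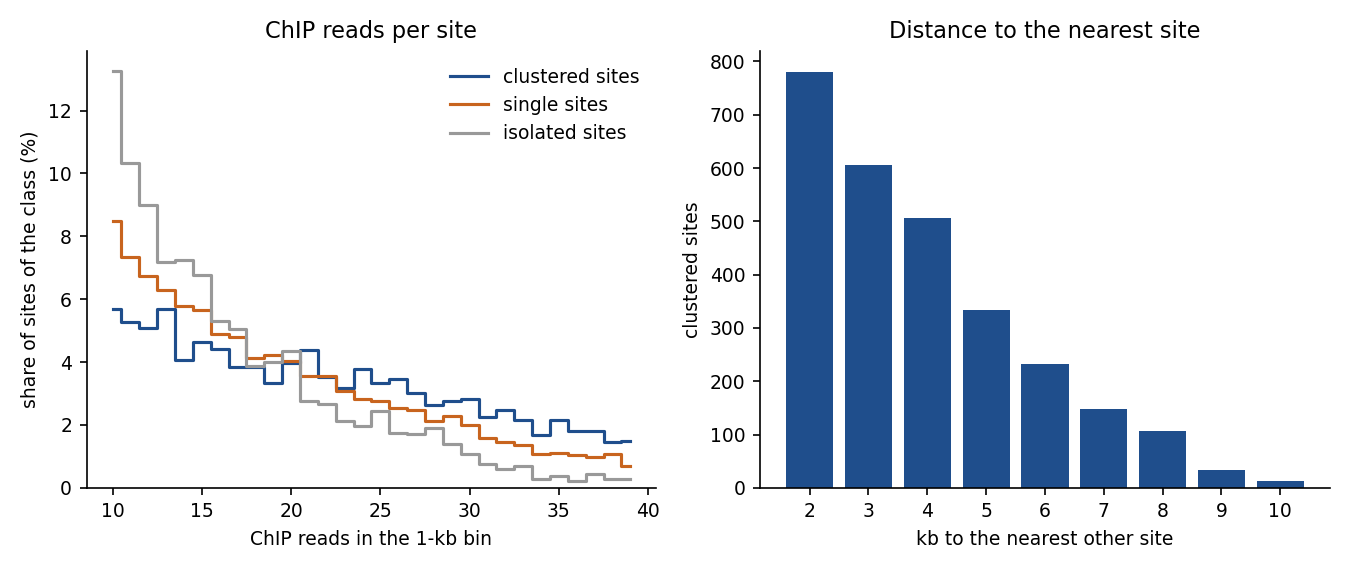
Left, share of each class of sites (%) by ChIP reads in the 1-kb bin. Right, number of clustered sites by distance in kb to the nearest other site. The clustered curve lies below the other curves at 10 reads and above them at 39 reads, and 781 clustered sites have their nearest neighbour at 2 kb.

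The limits of the rule passed through populated ranges. There were 157 clustered sites with exactly 10 ChIP reads, against 187 bins of 9 reads that had 2 or more sites within 10 kb and did not touch a site. At the upper limit, 41 clustered sites had 39 reads and 29 sites of 40 reads had 2 or more others. The second nearest site was 10 kb away for 428 clustered sites, and 11 kb away for 439 sites that were therefore not members. Only 10 clustered sites had the allowed maximum of 10 extract reads, and 7 bins of 10 to 39 ChIP reads were left out with 11.

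Most clustered sites had the smallest number of neighbours that the rule accepts. Exactly 2 others lay within 10 kb of 2216 clustered sites (80.3%), 3 others of 479 (17.3%), 4 of 61 and 5 of 5. Neighbours lay on both sides of 1650 (59.8%) and on 1 side of 1111. The nearest other site was at 2 or 3 kb for 1387 (50.2%), and at 9 or 10 kb for 33 and 12. Distances are in whole bins, and merging makes 2 kb the smallest distance possible. Adjacent passing bins had been merged at 291 clustered sites (10.5%), 751 paired sites (10.7%) and 1210 single sites (8.49%).

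A cluster is here a run of sites, each within 10 kb of the next, that holds at least 1 clustered site. There were 1247 clusters with 4332 sites. Besides the 2761 members these held 455 sites of 40 or more reads and 1116 sites at the edges with fewer than 2 others within 10 kb. Of the clusters, 846 had 3 sites, 276 had 4 sites and 86 had 5 sites, and 39 (3.13%) had 6 or more. The median cluster spanned 13 kb, from 5 kb in the shortest to 66 kb in the longest. A 3-site cluster at the median of the summed reads lay on chromosome 1 from 74826001 to 74836000. Its sites held 30, 19 and 19 ChIP reads and 6, 3 and 6 extract reads, all 3 of them members.

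The longest cluster was also the one with the most members. Found on chromosome 18 between 37833001 and 37899000, it consisted of 13 sites, 10 of them members. From its first to its last site the ChIP reads per bin were 19, 20, 17, 31, 16, 12, 15, 14, 30, 27, 31, 43 and 18, and the extract reads were 3, 6, 3, 7, 3, 3, 1, 1, 0, 1, 4, 5 and 3. No extract bin reached the lowest ChIP bin, and the highest site stood near 1 end of the run. Gaps between its neighbouring sites ranged from 4 to 7 kb (mean 5.42 kb, SD 1.08, 12 gaps).

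A second cluster on chromosome 18, from 37781001 to 37821000, ended close by: its last site lay 13 kb before the first site of the longest cluster. Its 8 sites, 6 of them members, held 34, 20, 19, 30, 36, 42, 12 and 22 ChIP reads against 0, 5, 3, 1, 4, 5, 2 and 3 extract reads. The gaps were again from 4 to 7 kb (mean 5.57 kb, SD 0.976, 7 gaps). With others counted within 20 kb, the sites here numbered 7 members and those of the longest cluster 12. With others within 5 kb there were 1 and 3 members, and with at least 3 others 2 and 8. With at most 5 extract reads per site the second cluster kept 6 members, and the longest had 7 of its 10.

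The cluster on chromosome 11 from 114444001 to 114489000 consisted of members throughout. Its 9 sites held 24, 14, 22, 13, 10, 16, 22, 32 and 24 ChIP reads and 1, 5, 2, 2, 2, 2, 2, 1 and 1 extract reads. The gaps were less even than on chromosome 18, from 2 to 9 kb (SD 2.2 kb, 8 gaps). The number of members over this span was 7 with at least 12 ChIP reads per site. It was 6 when bins started at position 500 or when reads were moved 75 bp, 4 with at least 3 others and 2 with others within 5 kb.

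Next came 3 clusters with 6 or 7 members. On chromosome 12 from 81048001 to 81082000, 8 sites held 20, 25, 25, 30, 18, 16, 21 and 12 ChIP reads, with at most 5 extract reads, and there were 4 members with others counted within 5 kb. On chromosome 10 from 79171001 to 79197000, 7 sites held 37, 12, 18, 16, 26, 29 and 14 ChIP reads, with at most 4 extract reads. Its gaps, from 3 to 5 kb, had the smallest mean of the 6 clusters with the most members (4.17 kb, SD 0.753, 6 gaps), and there were 5 members with others counted within 5 kb. On chromosome 2 from 28400001 to 28448000, 8 sites held 24, 83, 24, 24, 16, 15, 23 and 15 ChIP reads, with at most 6 extract reads. There a site of 83 reads, too high to be a member, stood beside sites of 15 to 24 reads. This cluster was the loosest of the 6 by mean gap (6.71 kb). Its 6 members became 3 with at most 5 extract reads, 1 with at least 3 others and 0 with others within 5 kb.

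**Figure D2:**
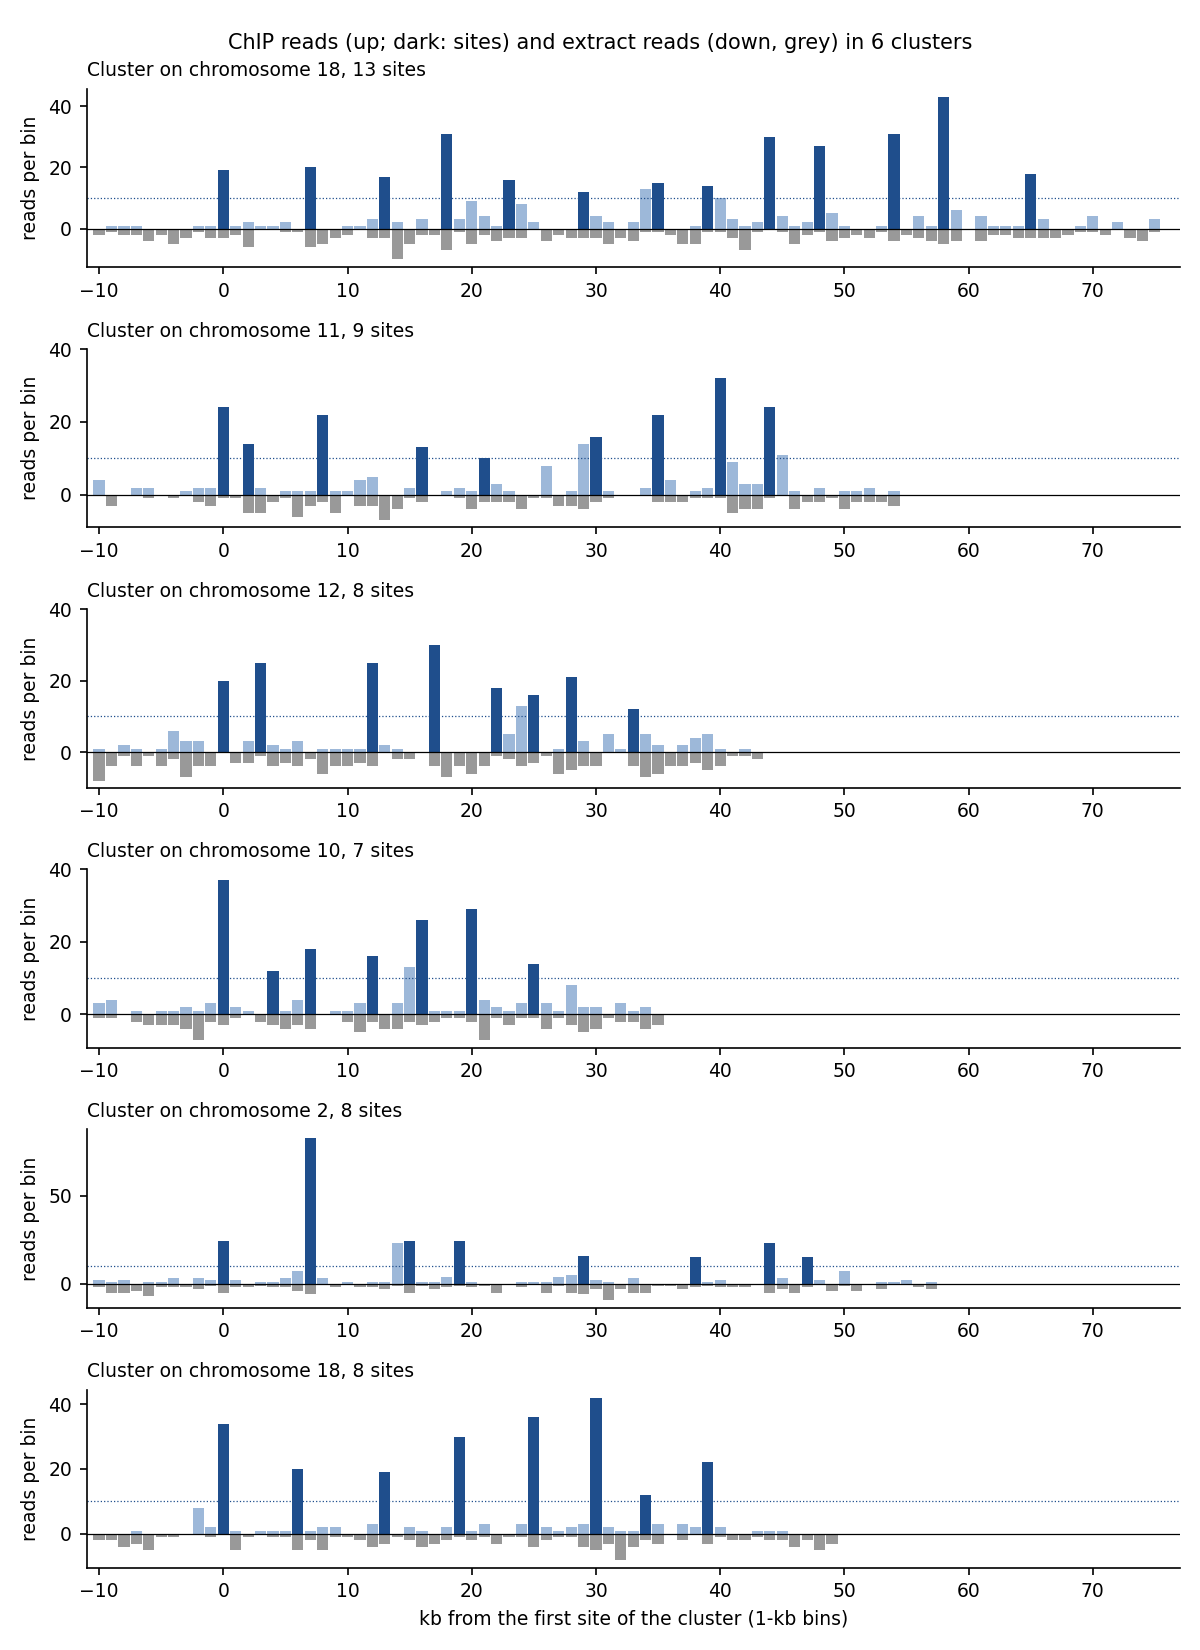
ChIP reads (upwards, blue) and extract reads (downwards, grey) per 1-kb bin in the 6 clusters with the most members, by kb from the first site, with 10 kb shown on either side. Dark bars are sites, pale bars are other bins (a pale bar over the dotted line at 10 reads is a passing bin merged into its neighbour), and the runs span 26 to 66 kb.

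The most crowded member had 5 other sites within 10 kb, as 5 clustered sites did. This member, on chromosome 5 between 120357001 and 120358000, had only 14 ChIP reads and 8 extract reads. Its cluster of 6 sites, from 120349001 to 120368000, held 31, 33, 14, 15, 133 and 23 ChIP reads. The site of 133 reads lay 6 kb from that member, so weak and very strong sites stood in the same 19 kb. The member with the most extract reads around it was found on chromosome 7 between 100807001 and 100808000. Its own bin had 13 ChIP reads and 3 extract reads, with 64 extract reads in the 11 bins assigned to it, and its cluster had 13, 10 and 39 ChIP reads.

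Heights of neighbouring sites were nearly unrelated. Over 3085 adjacent pairs of sites in clusters, Spearman's rho of their ChIP reads was 0.05, a description across sites of 1 library in which both values start at 10. The higher site of a pair had a median of 29 reads and the lower 16. The higher site had at least 2 times the reads of the lower in 30.9% of pairs. The closeness of the pair made little difference: rho was 0.03 at 2 to 3 kb, 0.04 at 4 to 6 kb and 0.07 at 7 to 10 kb. In 3288 pairs outside such clusters rho was 0.07 and the share 31%.

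Strong sites stood beside a minority of the members. A site of 40 or more reads lay within 10 kb of 643 clustered sites (23.3%), and 369 clusters (29.6%) held at least 1. Counting each neighbour of each site, 11.9% of 6138 neighbours of clustered sites had 40 or more reads, against 9.14% of 7010 neighbours of paired sites and 7.82% of all sites. The neighbours' excess over 10 reads was not used by the rule, but neighbours are counted here once for each member they adjoin, and the difference was not tested. Members with such a neighbour had a median of 21 reads and those without 20. Ties included, 624 clustered sites (22.6%) were the highest site of their cluster. Apart from ties a cluster has 1 highest site, and there were 1247 clusters with 4332 sites. Cluster size therefore limits this share, which is a description only.

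A member's own reads were also set against the number and side of its neighbours. The rule limited both values, so the medians are a description and were not tested. The median was 20 ChIP reads (interval 20 to 21) with 2 others, 22 (20 to 23) with 3 and 21 (18 to 24) with 4 or 5. It was 21 with neighbours on both sides and 20 with neighbours on 1 side, and 21, 20 and 20 where the nearest site lay at 2 to 3, 4 to 6 and 7 to 10 kb.

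The strands of the reads were described at clustered sites. The same ChIP reads chose the members, after reads of both strands had been moved by a fixed length. The distance between the strands is therefore not an independent check that clustered bins hold points of binding. Around a bound point, plus-strand 5′ ends lie upstream and minus-strand ends downstream by the fragment length. The median clustered site had its minus-strand ends 200.5 bp downstream of its plus-strand ends (interval 197 to 202.5, quartiles 162 and 239.5, 2639 sites with at least 4 reads on each strand within 500 bp). By chromosome this offset ranged from 189 to 206 bp. It was 199.5 bp at single sites (198.5 to 201), an interval that overlaps that of clustered sites. Extract reads around clustered sites, pooled over sites, were offset by 49.5 bp (24.5 to 73.5, from opposite ends of both strands' median intervals).

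Reads of both strands were present at 2757 of the 2761 clustered sites, and 49.9% of the reads were on the plus strand (49.5 to 50.3). In a two-sided exact binomial test of each site, adjusted by Benjamini-Hochberg over all 26066 sites, 1 clustered site had an adjusted p under 0.05. The background was 4 of all sites (0.0153%). This member was on chromosome 3 between 10232001 and 10233000, and it is named after its value was seen. There were 0 plus-strand and 20 minus-strand ChIP reads and 1 extract read (exact binomial adjusted p = 0.0166). At an unadjusted p under 0.05 there were 83 clustered sites (3.01%), against 3.61% of all sites. A site with fewer than 18 reads could not pass the adjusted threshold even with all reads on 1 strand, and 1068 clustered sites had fewer.

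Reads at clustered sites were slightly more spread within their bin. The interquartile range of read positions, which would be about 500 bp for reads spread evenly over the bin, had a median of 126.5 bp at clustered sites (124.5 to 128.5). It was 123.5 bp at paired sites (122 to 124.8), 121.2 bp at single sites (120.5 to 122) and 115 bp at isolated sites (113 to 118). Sites of 40 or more reads, whether or not they stood in a cluster, had a median of 127 bp, inside the interval of clustered sites, so this spread was not particular to clustered sites. Clustered sites exceeded single sites on 17 of 19 chromosomes. The difference of 5.25 bp was 9.5 bp among sites of 10 to 19 reads and 2.25 bp, with an interval of -1 to 6.25 bp, among sites of 20 to 39. Ranges over 250 bp occurred at 190 clustered sites (6.88%), 454 paired sites (6.48%) and 793 single sites (5.56%). Among sites of 40 or more reads there were 181 (8.88%).

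The surroundings beyond the 10 kb of the rule were also rich in sites. Between 10 and 100 kb away the median clustered site had 5 other sites (quartiles 3 and 7), the median paired site 4 and the median single site 3 (1 and 5). No site lay in that range for 3.62% of clustered and 13.2% of single sites. Between 100 kb and 1 Mb the medians were 41, 33 and 25 sites. Sites of 40 or more reads had medians of 5 and 42 sites at these distances, close to those of clustered sites. The median at 10 to 100 kb was higher for clustered than for single sites on 18 of 19 chromosomes and equal on chromosome 6. Sites at these distances share chromosomes and stretches, so the medians carry no test.

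Members were counted by stretches of 1 Mb and by chromosome. Of 2472 stretches of 1 Mb on the autosomes, 699 (28.3%) held a member, and 45 stretches with 10 or more members held 589 of them (21.3%). The rule picks sites that have others nearby, so it places members together by itself. The same shares were not counted for all sites, so these numbers are a description only. The most crowded stretch, chosen after its value was seen, was on chromosome 10 from 79000001 to 80000000 with 36 members. Among chromosomes, the share of sites that were members was highest on chromosome 5, with 272 of 1943 sites or 14% (12.5 to 15.6). It was lowest on chromosome 6, with 103 of 1438 or 7.16% (5.88 to 8.62). Both were picked as the extremes of 19 chromosomes, and members come in linked runs, so the difference was not tested and the intervals are too narrow. Across the 19 chromosomes, the share and the number of sites per Mb had a Spearman's rho of 0.39, given as a description because a higher density itself places sites closer together.

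Bins around clustered sites held more reads of both libraries than bins around single sites. The bins compared held no site and did not touch one, and each was assigned to its nearest site within 10 kb. Around clustered sites there were 1.23 ChIP reads per kb (1.21 to 1.25, 13677 bins), against 1.13 around paired sites (1.12 to 1.14), 0.972 around single sites (0.968 to 0.976) and 0.722 around isolated sites (0.713 to 0.731). The extract held 2.71 (2.69 to 2.74), 2.61 (2.6 to 2.62), 2.4 (2.4 to 2.41) and 1.94 (1.92 to 1.95) reads per kb in the same bins. These 4 classes stood in the same order in both libraries, and their intervals do not overlap. Around sites of 40 or more reads there were 1.21 ChIP (1.2 to 1.23) and 2.73 extract reads per kb (2.71 to 2.75), intervals that overlap those of clustered sites, so these levels were not particular to clustered sites.

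The ChIP ratio of clustered over single sites was 1.27 (1.25 to 1.29) and the extract ratio 1.13 (1.12 to 1.14). In extract lane 1 and lane 2 the ratio was 1.14 and 1.12. Relative to the extract, ChIP reads around clustered sites were thus 1.12 times those around single sites (normal approximation on log counts, 1.1 to 1.14). Against paired sites the ChIP ratio was 1.09 (1.07 to 1.11) and the extract ratio 1.04 (1.03 to 1.05). With 1 library each, regional differences in how well DNA was recovered or aligned and differences in CTCF occupancy cannot be told apart in the ChIP reads.

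**Figure D3:**
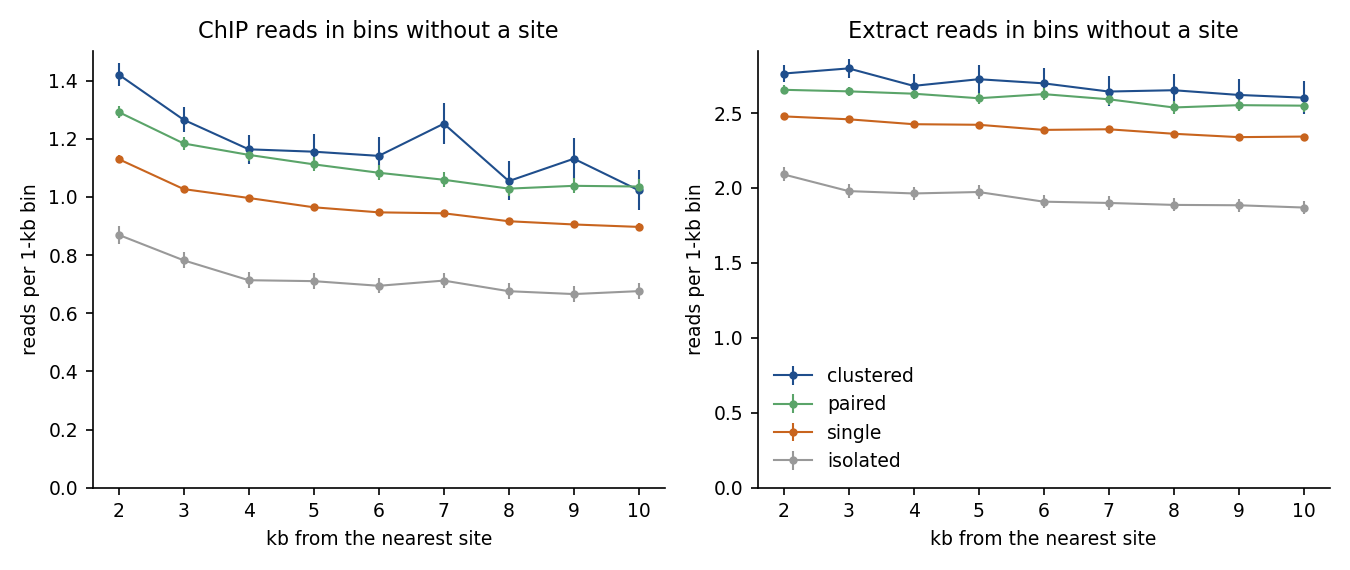
Reads per 1-kb bin in bins without a site, by distance in kb from the nearest site, for ChIP (left) and extract (right) and 4 classes of sites. Points are means and bars are 95% exact Poisson intervals. Around clustered sites ChIP falls from 1.42 reads at 2 kb to 1.02 at 10 kb, while the extract goes from 2.76 to 2.6.

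The excess over single sites held at each distance. It was 1.26-fold in ChIP at 2 to 3 kb (1.23 to 1.29), 1.19-fold at 4 to 6 kb (1.16 to 1.23) and 1.22-fold at 7 to 10 kb (1.18 to 1.26). The extract ratio was 1.13, 1.12 and 1.11 at these distances. On the 19 chromosomes taken singly, the ChIP ratio ranged from 1.13 on chromosome 13 to 1.39 on chromosome 17. The extract ratio ranged from 1.06 on chromosome 11 to 1.23 on chromosome 19. Every one of these intervals lay above 1. The ChIP-to-extract ratio was above 1 on 17 of 19 chromosomes, the exceptions being chromosomes 12 and 13 at 0.989 and 0.982.

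**Figure D4:**
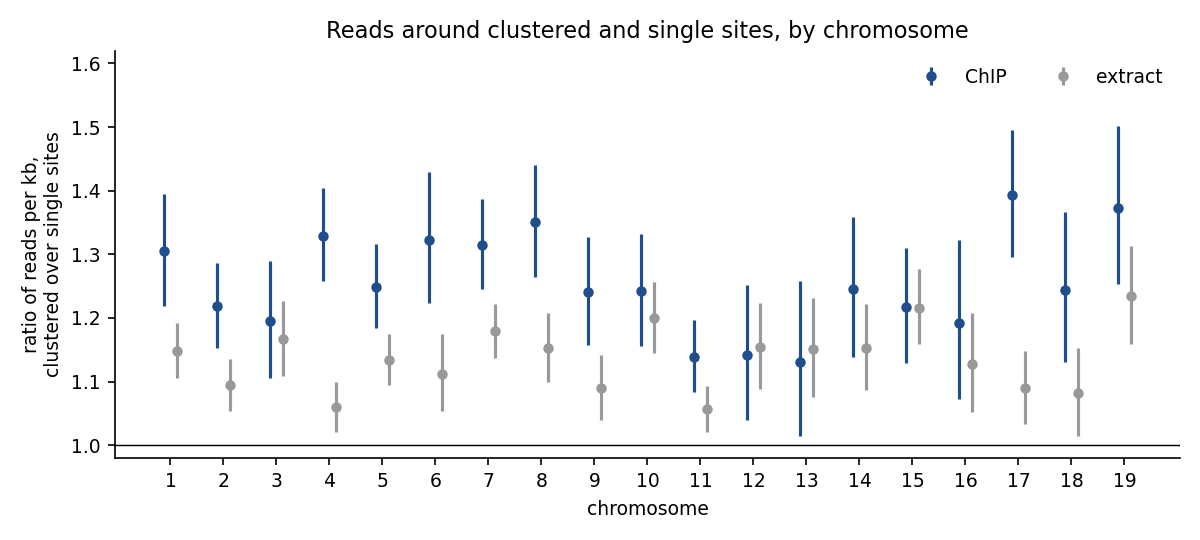
Ratio of reads per kb around clustered sites to reads per kb around single sites, for each chromosome, in ChIP (blue) and extract (grey), with 95% exact intervals. All 19 ChIP ratios, from 1.13 to 1.39, and all 19 extract ratios, from 1.06 to 1.23, lie above 1.

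Part of this excess went with the density of sites in the wider region. Clustered sites were divided into 4 groups by the number of sites between 100 kb and 1 Mb away, and single sites by the same limits. With up to 26 such sites, ChIP reads per kb were 1.05 around clustered and 0.849 around single sites, a ratio of 1.24 (1.2 to 1.28). With more than 57, they were 1.39 and 1.23, a ratio of 1.12 (1.09 to 1.16). The extract ratio was 1.14 (1.12 to 1.17) in the sparsest group and 1.02 (0.995 to 1.04) in the densest, an interval that includes 1. With single sites weighted to the distances and regional densities of clustered sites, a choice made after seeing the data, the ChIP ratio was 1.13 and the extract ratio 1.06.

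Bins of 7 to 9 ChIP reads, just short of a site, were also more frequent. They made up 1.11% of the bins around clustered sites (0.942 to 1.3, 152 bins), 1.02% around paired sites (0.941 to 1.09) and 0.695% around single sites (0.662 to 0.729). Around sites of 40 or more reads the share was 1% (0.879 to 1.14), so it was not particular to clustered sites. The ratio of clustered to single sites was 1.6 (1.35 to 1.89), not matched for distance. It was 1.6 (1.25 to 2.04) at 2 to 3 kb and 1.68 (1.18 to 2.33) at 7 to 10 kb. At 4 to 6 kb it was 1.23 (0.846 to 1.72), an interval that includes 1. The ratio of clustered to paired sites was 1.09 with an interval of 0.912 to 1.31. Some bins with 10 or more ChIP reads were left out for having over 10 extract reads. Such bins lay within 10 kb of 19 clustered (0.688%), 35 paired (0.499%) and 29 single sites (0.203%). They also lay within 10 kb of 11 sites of 40 or more reads (0.539%).

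The extract was also higher in the site bins themselves, within its allowed maximum of 10 reads. Clustered sites averaged 3.28 extract reads, paired sites 3.22, single sites 3.05 and isolated sites 2.62. Sites of 40 or more reads averaged 3.99, so a higher extract was not particular to clustered sites. The ratio of clustered to paired sites was 1.02, with an interval of 0.993 to 1.04 that includes 1. The ratio to single sites was 1.08 (1.05 to 1.1), with 1.09 in lane 1 and 1.06 in lane 2. It was 1.07 (1.03 to 1.11) among sites of 10 to 19 ChIP reads and 1.04 (1.01 to 1.07) among those of 20 to 39. Clustered sites exceeded single sites on 16 of 19 chromosomes. The rule limited the extract reads of these bins, so the ratios describe the classes and were not tested.

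The excess of ChIP reads between the sites of a cluster was smaller once the distance to the nearest site was matched. Over all 7348 bins between the first and last site of a cluster there were 1.33 ChIP reads per kb, against 1.18 in 20252 bins up to 10 kb beyond its ends, a ratio of 1.13 (1.1 to 1.15). The extract ratio was 1.02 (1.01 to 1.04), with 1.03 (1.01 to 1.05) in lane 1 and 1.01 (0.988 to 1.04) in lane 2. With 2 bins either side of a site left out it was 1.02 (0.998 to 1.04). The intervals of lane 2 and of this setting include 1. Inner bins lay closer to a site. They also had a site of the cluster on either side, which was not matched, and the cause of the excess was not tested. At 2 to 3 kb from the nearest site the ChIP ratio was 1.05 (1.01 to 1.08) and the extract ratio 1 (0.977 to 1.02). At 4 to 5 kb the ChIP values were 1.19 and 1.18 reads per kb, a ratio of 1.01 (0.957 to 1.07).

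**Figure D5:**
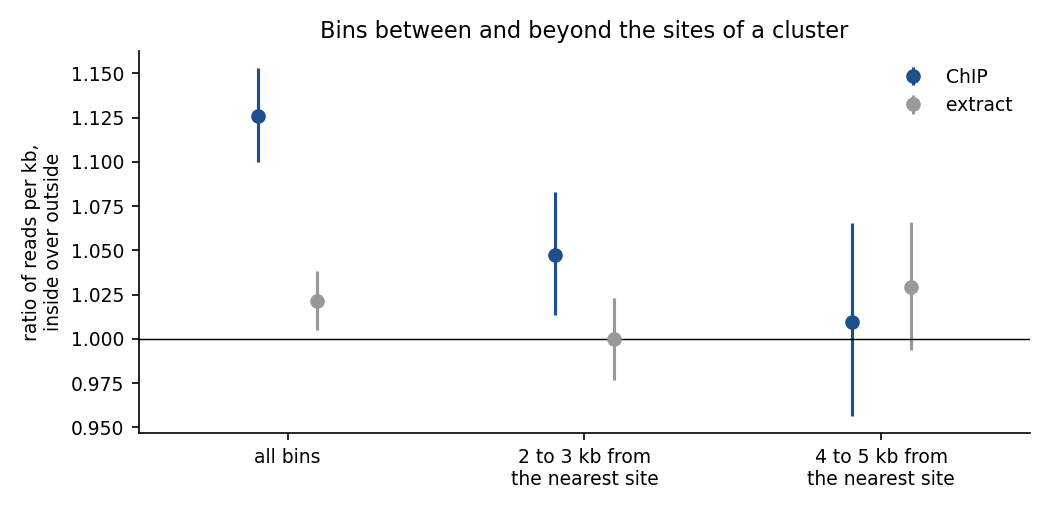
Ratio of reads per kb in bins between the sites of a cluster to bins up to 10 kb beyond its ends, for all bins and at 2 matched distances, in ChIP (blue) and extract (grey), with 95% exact intervals. The ChIP ratio goes from 1.13 over all bins to 1.05 at 2 to 3 kb and 1.01 at 4 to 5 kb.

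In the 6 clusters with the most members the inner bins varied in both directions. ChIP reads per kb were higher inside than outside in both clusters on chromosome 18 (1.52 against 0.786 in the longest, 1.06 against 0.857 in the other) and on chromosome 11 (1.4 against 1.06). They were lower inside on chromosomes 12 (1.08 against 1.78), 10 (1.17 against 1.88) and 2 (0.84 against 1.47). Each value rests on 7 to 41 ChIP reads inside and 11 to 32 outside, so counting error is large for any 1 cluster.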

How the data were processed

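The authors deposited 1 line per aligned read (chromosome, start, end, strand, read name); the files have no header, and what each column holds was read from its values. The build is mm8 per the submitters' processing notes. The sources used here do not name the aligner or any filter. Per the labels' protocols, libraries were amplified by 15 PCR cycles and cut at about 250 bp, adapters included. Every read was 36 bases long and no position and strand occurred more than once in a library, so counts have a ceiling and PCR copies are unknown. Starts were taken as counted from 0, and printed positions count from 1.

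Reads were counted with Python 3.11.15, numpy 2.4.6, pandas 2.3.3 and scipy 1.17.1. Intervals are exact Poisson, Clopper-Pearson or, for ratios of rates, conditional binomial; intervals of medians come from order statistics. The calling, ratios, offset and strand test were also run on simulated reads, with pass limits only for the calling and the ratios. The simulated sites lay at bin centres over an even extract, so sites near bin edges and uneven extract were not covered. The members and lists were chosen with earlier results of these data known. Named regions were the 6 clusters with the most members (ties by ChIP reads), the member with the most others, a 3-site cluster at the median of summed reads, the member with the most extract reads around it, and the chromosomes with the highest and lowest share of members. Gene starts and the CTCF motif were not analysed here.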

Additional observations from a re-analysis of the deposited data

How the results depend on the processing

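The 2761 clustered sites numbered 737 with others counted within 5 kb, 6930 within 20 kb, 545 with at least 3 others and 5966 with adjacent sites not merged, since touching bins then count as others. The median distance to the nearest site, 3 kb, was 2, 5 and 2 kb with 5 kb, 20 kb and no merging. The other 6 settings of shift, bin start and read limits kept the number between 2080 and 2796. With 2 bins either side of a site left out, the ChIP ratio around clustered over single sites was 1.22, the ChIP-to-extract ratio 1.09, and inside over outside a cluster 1.06 and 1.04. Among sites of 10 to 19 ChIP reads, chosen after seeing the data, the extract ratio around clustered sites was 1.16 and ChIP-to-extract 1.1. Among sites of 20 to 39 the ChIP ratio was 1.23 and the extract ratio 1.08. Weighting single sites to distance and regional density gave 1.13 and 1.06. Inside over outside, at 2 to 3 kb ChIP gave 1.05, ChIP-to-extract 1.05 and the extract 1 (0.99971, below its main direction). At 4 to 5 kb they were 1.01 for ChIP and 0.981 for ChIP-to-extract, which reversed. The strand offset was 204 bp at sites of 10 to 19 reads and 186.5 bp with reads within 300 bp, where the window itself is shorter. The spread difference was 9.5 and 2.25 bp in sites of 10 to 19 and 20 to 39 reads. With an adjusted p under 0.01 in the exact binomial test, 0 members had unequal strands, and 83 at an unadjusted p under 0.05; no other tool was run. Except where given, the cause was not tested. Leaving out chromosomes 1 and 4, using 1 extract lane or moving reads by a shorter or longer distance kept each read ratio within its counting interval. Gene starts and the motif, planned for a genome of the same build, were left out. No paired analysis was possible because there is only 1 ChIP and 1 extract library, so replicates could not be left out either. Depth limits statements on any 1 cluster, since each of the 6 with the most members had at most 41 ChIP reads in its inner bins.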
